A study of Mus musculus with 8 samples.

Results

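Plk2 and Irs2 were followed across B cells that carried an antigen receptor for hen egg lysozyme (HEL). The receptor was either a chimera with parts of IgG1 or a plain IgM. Both genes were strongly higher after antigen in both kinds of cell. Their signal after antigen was lower with the chimera, at 33.7% of the IgM mean for Plk2 and 28.2% for Irs2. Every probe set whose platform symbol is Plk2 or Irs2 was taken. Each gene had 1 probe set, so they make up 2 of 8251 named genes and 2 of 12422 probe sets that are not controls, and both were bright enough to be among the 7453 tested. The pair was chosen by its HEL responses and the difference of those responses between the receptors, which were already known, so those values are given below as a description without a test. The comparison of resting cells was not itself used to choose the genes, and it was tested. Its arrays also enter the responses and their difference, so this test is not independent of the choice.

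The cells were sorted mouse B cells labelled FO, the usual abbreviation of follicular. The groups, of 2 arrays each, were IgMG cells with HEL, IgMG cells left unstimulated, IgM cells with HEL and IgM cells left unstimulated. IgMG names a chimeric receptor: its antigen-binding part is that of the IgM against HEL, while the extracellular spacer, the transmembrane stretch and the cytoplasmic end come from IgG1, and all 4 groups share that specificity for HEL. Each array held RNA pooled from several mice, namely 5 to 8 mice for IgMG and 2 or 4 mice for IgM, from 1 to 3 sorts. The age, sex and strain of the mice, how the receptor genes were introduced and how long HEL was applied are not stated in the labels. The number of mice pooled and the receptor cannot be told apart.

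Plk2 encodes a serine/threonine kinase of the Polo-like family. It was first known as serum-inducible kinase, Snk, because its transcript appears soon after growth stimuli reach a resting cell, and it is also a known target of p53. Irs2 encodes a docking protein without catalytic activity of its own. Receptors for insulin and insulin-like growth factor, and in lymphocytes the interleukin-4 receptor, phosphorylate it on tyrosines, which then bind phosphoinositide 3-kinase (PI3K). In mouse liver, Irs2 transcription is known to be raised by FoxO factors and by the cyclic AMP response factor CREB. In B cells the antigen receptor itself activates PI3K, which keeps FoxO factors out of the nucleus.

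The 250 bases before each annotated start are shown because both genes changed in the same direction with antigen. The Plk2 gene lies on chromosome 13 from 110395044 to 110400844 on the plus strand, and Irs2 on chromosome 8 from 10984681 to 11008929 on the minus strand, in RefSeq's annotation of GRCm38.p6. The upstream windows are chr13:110394794-110395043 and chr8:11008930-11009179, read 5′ to 3′ along the gene, and both were matched by symbol in the RefSeq promoter table. Capitals mark the CRE and the GC boxes in Plk2, and the CCAAT boxes, the GC box and the E-box in Irs2.
Plk2: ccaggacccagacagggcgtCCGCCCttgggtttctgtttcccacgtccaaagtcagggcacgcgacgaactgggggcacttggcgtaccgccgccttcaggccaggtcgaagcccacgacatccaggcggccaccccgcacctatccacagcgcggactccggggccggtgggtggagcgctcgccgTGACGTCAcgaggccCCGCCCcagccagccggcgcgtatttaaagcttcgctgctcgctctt
Irs2: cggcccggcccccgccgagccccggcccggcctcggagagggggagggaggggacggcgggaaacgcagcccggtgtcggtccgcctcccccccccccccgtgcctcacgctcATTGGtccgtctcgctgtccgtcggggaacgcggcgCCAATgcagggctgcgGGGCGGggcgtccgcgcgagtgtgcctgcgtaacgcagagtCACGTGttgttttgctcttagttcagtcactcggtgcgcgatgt

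The Plk2 window held 1 full cyclic AMP response element (CRE), TGACGTCA, whose first base lies 62 bases before the start. Such an element occurred in 1.55% of the 32851 windows of the same length. The full element contains both matches of the shorter core TGACG, which 17.8% of windows held. The Irs2 window held neither, but it had 1 E-box CACGTG, 44 bases before the start, a sequence found in 6.02% of windows. It also had 2 CCAAT boxes (CCAAT, in 33.8% of windows), 1 on each strand. GC boxes (GGGCGG, in 32.7% of windows) numbered 2 in Plk2 and 1 in Irs2, and each window held 1 NFAT core GGAAA, which 55.6% of windows hold. Both strands were searched. Neither window contained the letters of an AP-1 site TGANTCA (6.75% of windows), an EGR site GCGNGGGCG (4.7%), a FoxO site GTAAACA (3.17%), an SRF CArG box (1.47%), an NF-kB site (3.9%) or a p53 decamer (7.13%). These are matches of letters in short windows. The GC content was 68.4% for Plk2 and 72.8% for Irs2, against a median of 52.4% over all windows. The base pair step CG occurred 28 times in Plk2 and 34 times in Irs2, against a median of 6. The letters of the CRE, the E-box and the GC box contain CG, so their shares over all windows are not a like baseline.

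Signals are the deposited MAS5 intensities on a linear scale, with each array scaled to a like mean. Plk2 had signals of 795.6 and 837.6 in IgMG cells with HEL, against 69.3 and 45.4 in unstimulated IgMG cells. In IgM cells it had 2130.6 and 2717.1 with HEL, against 60.8 and 56.1 without. Within each receptor the HEL arrays did not overlap with the unstimulated ones, and both IgMG arrays with HEL lay below both IgM arrays with HEL. Such separation is common with 2 arrays a group: by itself it held for 23.7% of tested probe sets as a rise in IgMG cells, for 27.6% as a rise in IgM cells, and for 24.5% as a lower signal in HEL-stimulated IgMG than IgM cells. In bulk RNA, a smaller share of responding cells and less transcript per cell cannot be told apart.

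On each array, Plk2 outranked 94.3% and 94.5% of probe sets in IgMG cells with HEL, and 58.7% and 49.2% in unstimulated IgMG cells. It outranked 98.4% and 98.8% in IgM cells with HEL, and 55.8% and 55.1% in unstimulated IgM cells. The transcript was therefore in the middle of the array before antigen and among the brighter probe sets after it, with either receptor.

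Irs2 had signals of 181.3 and 205.0 in IgMG cells with HEL, against 11.3 and 19.5 in unstimulated IgMG cells. In IgM cells it had 556.1 and 813.5 with HEL, against 35.2 and 35.3 without. The 4 groups did not overlap in Irs2, in contrast to Plk2, whose unstimulated groups did. A lower signal on both resting IgMG arrays was found for 15.1% of tested probe sets. Both unstimulated IgMG values lay in the dimmer part of the array, above 28.3% and 35.1% of probe sets, where MAS5 summaries are noisy. The unstimulated IgM values were above 46.2% and 47.7% of probe sets.

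**Figure D1:**
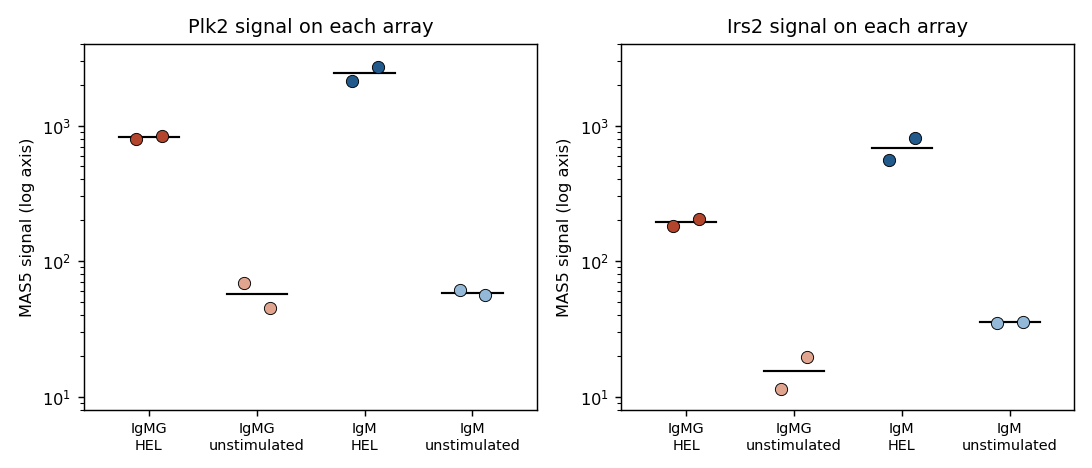
MAS5 signal of Plk2 (left) and Irs2 (right) on each of the 8 arrays, on a log axis. Points are arrays and horizontal lines are means of 2 arrays. Plk2 starts from overlapping levels in both resting groups. Irs2 is lower on both resting IgMG arrays than on the resting IgM arrays, a difference that did not pass the test. Both genes are lower in IgMG than in IgM cells with HEL.

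Changes were computed as differences of log2(signal + 16), which understates those of dim genes, and errors are standard errors of a limma fit over all 8 arrays unless called SD. With HEL, Plk2 was higher by 3.52 ± 0.21 in IgMG cells and by 5.02 ± 0.21 in IgM cells. Its mean signals were 816.6 ± 29.7 with HEL and 57.4 ± 16.9 without in IgMG cells (SD, n = 2 each), a ratio of 14.2. In IgM cells they were 2424 ± 415 with HEL and 58.5 ± 3.32 without (SD, n = 2 each), a ratio of 41.5. Among the 7453 tested probe sets, the HEL response of Plk2 was the 10th highest in IgMG cells and the 6th highest in IgM cells.

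For Irs2 the response was 2.75 ± 0.24 in IgMG cells and 3.75 ± 0.24 in IgM cells. Mean signals were 193 ± 16.8 with HEL and 15.4 ± 5.80 without in IgMG cells (SD, n = 2 each), a ratio of 12.5. Both unstimulated IgMG values (11.3 and 19.5) lay below 22.88, the lowest mean level of a tested probe set, and detection calls were not used here, so this ratio rests on a level not shown to be above background. With 22.88 in place of the unstimulated IgMG mean the ratio was 8.44. In IgM cells the mean signals were 685 ± 182 with HEL and 35.2 ± 0.0707 without (SD, n = 2 each), a ratio of 19.4. These responses were the 14th highest in IgMG cells, a place that depends on the same dim values, and the 11th highest in IgM cells.

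**Figure D2:**
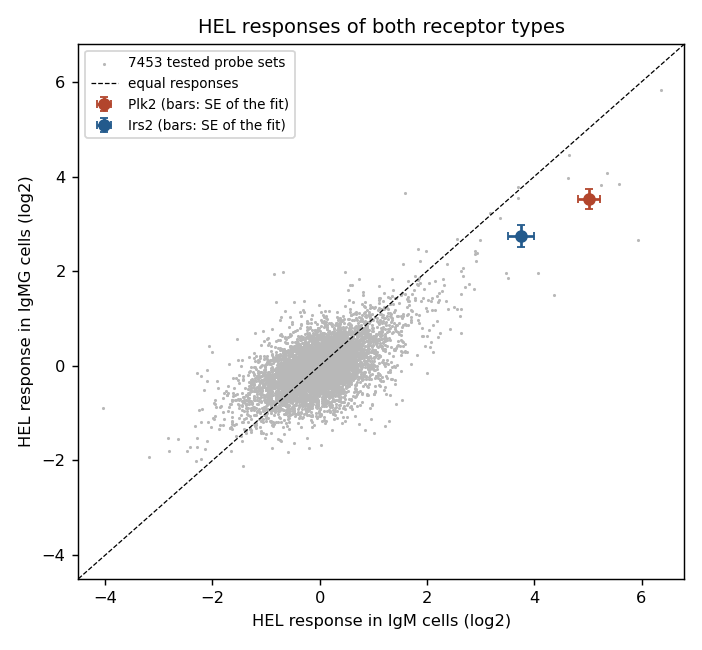
HEL response of each of 7453 tested probe sets in IgMG cells (vertical axis) against IgM cells (horizontal axis), both in log2, with Plk2 and Irs2 drawn with standard errors. Both lie among the highest responses and below the dashed line of equal responses, Plk2 at 3.52 against 5.02 and Irs2 at 2.75 against 3.75.

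Before HEL the Plk2 signals of both receptors overlapped. Irs2 was lower on both resting IgMG arrays, at signals not shown to be above background. That resting difference did not pass (adjusted p = 0.992 in limma). After HEL, the Plk2 signal was lower in IgMG than in IgM cells by 2.91-fold (log2 difference -1.54 ± 0.21), while before HEL the difference was -0.04 ± 0.21. The difference of responses, IgMG minus IgM was -1.50 ± 0.29. Irs2 after HEL had a log2 difference of -1.72 ± 0.24, but it was also lower before HEL, and the difference of its responses was -1.0 ± 0.34. As ratios of mean signals, the IgM level with HEL was 2.97 times the IgMG level for Plk2 and 3.55 times for Irs2.

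For Irs2 the size of the difference of responses depended on the offset and on the arrays used. With an offset of 1 in place of 16 it was -0.61, and with an offset of 64 it was -1.20. Without the second HEL-stimulated IgM array it was -0.74, and without this array and the second unstimulated IgMG array together it was -0.55. For Plk2 it stayed between -1.78 and -1.26 in all 17 alternatives run. The comparison of stimulated cells alone moved less: it lay between -1.72 and -1.37 for Plk2 and between -1.99 and -1.45 for Irs2 in all 18 alternatives.

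**Figure D3:**
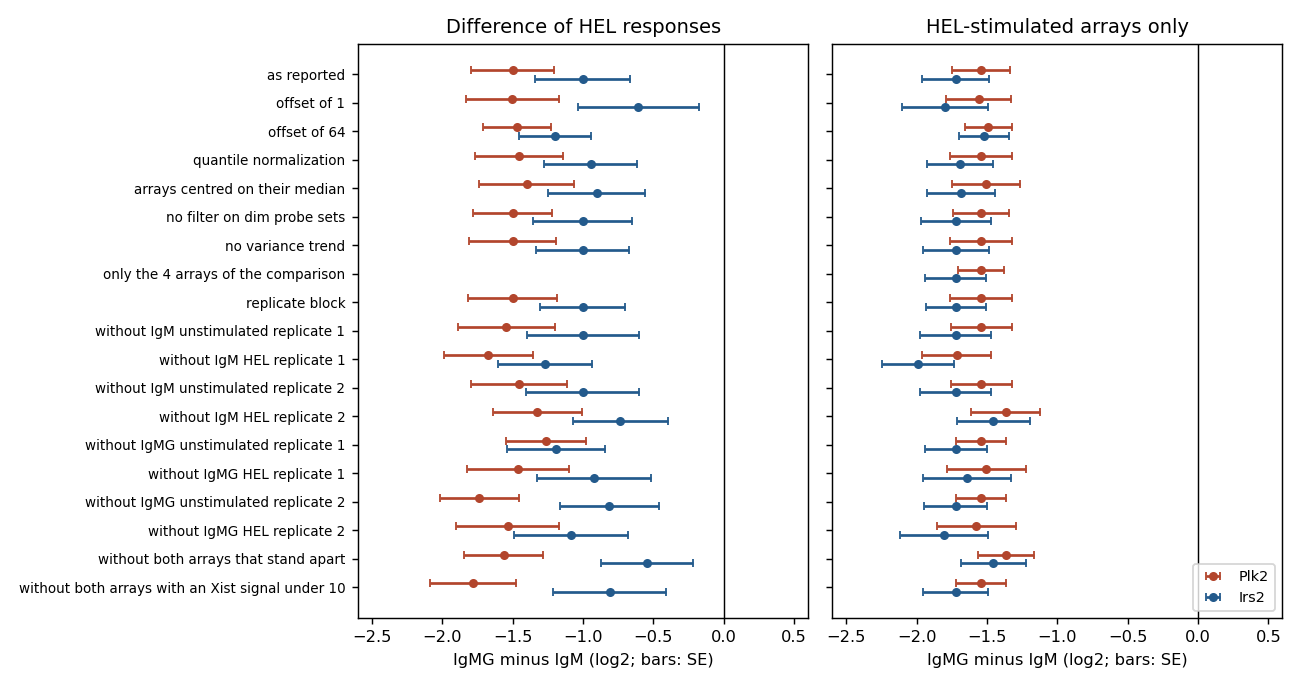
Plk2 and Irs2 under each processing alternative: IgMG minus IgM in log2, for the difference of HEL responses (left) and for the HEL-stimulated arrays alone (right), with standard errors. Every value is below 0; Irs2 ranges from -1.27 to -0.55 on the left and from -1.99 to -1.45 on the right.

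In resting cells, the comparison that was tested, the Irs2 signal averaged 15.4 ± 5.80 in IgMG cells and 35.2 ± 0.0707 in IgM cells (SD, n = 2 each). Both IgMG arrays were lower, at signals not shown to be above background. The log2 difference was -0.72 ± 0.24, with a 95% interval from -1.26 to -0.18. Its unadjusted p = 0.0145 in limma, and after Benjamini-Hochberg adjustment over all probe sets the adjusted p = 0.992, so it did not pass. A signal lower on both arrays was found for 15.1% of tested probe sets. Plk2 averaged 57.4 ± 16.9 in resting IgMG cells and 58.5 ± 3.32 in resting IgM cells (SD, n = 2 each). Its 95% interval ran from -0.51 to 0.43, with an adjusted p = 0.995 in limma. In this comparison 0 of 7453 probe sets passed limma's adjusted threshold of 0.05 (0%), and 344 had an unadjusted p under 0.05.

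From high to low, the order of groups for Plk2 was IgM with HEL, IgMG with HEL, and then both resting groups, which overlapped. For Irs2 it was IgM with HEL, IgMG with HEL, resting IgM and resting IgMG, with no overlap between neighbours. The resting step by itself held for 15.1% of tested probe sets, lay at signals not shown to be above background and did not pass. How many probe sets kept all groups apart was not counted.

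Quality measures and markers of other cells moved with some arrays and groups. The second HEL-stimulated IgM array had a Gapdh 5'/3' signal ratio, a sign of RNA or labelling quality, of 0.755, against 0.140 to 0.395 on the other arrays. It also had the highest Plk2 and Irs2 signals. The stimulated IgMG arrays had ratios of 0.221 and 0.140 and the other stimulated IgM array 0.328. Without the second stimulated IgM array, stimulated IgMG cells differed by -1.37 for Plk2 and by -1.45 for Irs2 on the log2 scale. The second resting IgMG array had a summed signal of NK cell markers (8 of 11 measured) of 3701, against 353 to 1018 on the other 7, and of myeloid markers (15 of 16 measured) of 19289, against 5135 to 11109. Without that array, the resting difference was 0.20 for Plk2 and -0.91 for Irs2, and neither passed.

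Xist, transcribed in female cells, had signals of 646.5 and 685.6 in IgMG cells with HEL, against 160.7 and 0.9 in resting IgMG cells. In IgM cells it had 534.3 and 248.0 with HEL, against 9.3 and 614.9 without. The 2 resting arrays under 10 had the highest signals of the Y-linked gene Eif2s3y, 332.8 and 326.1, against 5.1 to 141.8 elsewhere. These signals point to pools that differed in the sex of the mice, and the part of sex in the results was not tested. Without those 2 arrays, the HEL response of Plk2 was 3.29 in IgMG and 5.07 in IgM cells, and that of Irs2 was 2.93 in IgMG and 3.75 in IgM cells.

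B cell markers were bright throughout: Cd79a had signals of 5637 to 7758, and Fcer2a, the low-affinity IgE receptor of follicular B cells, of 1099 to 3434. Cr2, the complement receptor, was dim at 45.6 to 112.6. The T cell gene Cd3e was at 6.7 to 11.6, but it is 1 gene of a T cell list whose sums are given below. The myeloid gene Lyz2 was at 105.6 to 1796.2 on 1 probe set and at 0.6 to 4.7 on the other. 

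Summed markers of other cells were higher in HEL-stimulated IgMG than IgM cells, the comparison in which Plk2 and Irs2 were lower. NK cell markers summed to 860 to 1018 in IgMG cells with HEL and 353 to 485 in IgM cells with HEL, and myeloid markers to 10354 to 11109 in IgMG and 5135 to 7787 in IgM cells with HEL. Markers of marginal zone B cells (5 of 7 measured) summed to 1026 to 1042 in IgMG and 783 to 861 in IgM cells with HEL. Marginal zone markers were thus higher in IgMG cells on all stimulated arrays, and in resting cells too, at 1309 to 1363 in IgMG and 750 to 960 in IgM cells. T cell markers (10 of 12 measured) summed to 255 to 290 in IgMG and 143 to 230 in IgM cells with HEL, and 7 of the 10 were too dim to be tested. In resting cells T cell markers summed to 441 to 570 in IgMG and 204 to 219 in IgM cells. Erythroid markers (5 of 9 measured) summed to 16253 to 20163 in IgMG and 13890 to 15706 in IgM cells with HEL. In none of these lists did the stimulated groups overlap. Such separation is common with so few arrays a group. Among single probe sets, 24.5% of those tested were lower without overlap in stimulated IgMG than IgM cells. The share that was higher without overlap was not counted, and no share was computed for sums of markers. The separations of these sums, and of the resting sums, therefore have no like baseline. Markers common to B cells (8 of 9 measured) overlapped between the stimulated groups, at 25467 to 29340 in IgMG and 23918 to 26855 in IgM cells with HEL. Follicular B cell markers (4 of 5 measured) overlapped too, at 3116 to 3228 in IgMG and 2987 to 3477 in IgM cells with HEL. In resting cells the markers common to B cells were lower in IgMG cells without overlap, at 25555 to 28008 in IgMG and 28563 to 28633 in IgM cells. Resting follicular markers overlapped, at 3341 to 3918 in IgMG and 2025 to 4658 in IgM cells. In resting cells myeloid markers overlapped, at 6542 to 19289 in IgMG and 7214 to 8141 in IgM cells. Resting erythroid markers overlapped as well, at 12706 to 17895 in IgMG and 13967 to 15600 in IgM cells. Resting NK cell markers did not, at 557 to 3701 in IgMG and 375 to 424 in IgM cells. The part of these cell types in the receptor difference was not tested.

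The 39 probe sets with a mean HEL response of at least 2 (log2) over both receptors gave a setting for the pair, since that choice favours neither receptor. Of these, 32 responded less in IgMG cells. The difference was below 0 for 51.3% of all tested probe sets. That share includes probe sets that fell or did not change, so it is not a like baseline. The 39 include Plk2 and Irs2 themselves and Xist, whose signals differed between pools as given above (log2 response 3.64 in IgMG and 1.59 in IgM cells). Without these 3 genes, 30 of 36 responded less in IgMG cells, with a median difference of -0.62. Over the 39, the median difference of responses was -0.63, and the median response in IgMG cells was 76.2% of that in IgM cells on the log2 scale. Plk2 stood at 70.1% and Irs2 at 73.2%. By the difference of responses, Plk2 was the 7th lowest and Irs2 the 14th lowest of the 39. Among all tested probe sets, by the difference in stimulated cells, Plk2 was the 16th lowest and Irs2 the 11th lowest.

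The signals of Plk2 and Irs2 themselves followed each other over the 8 arrays with r = 0.98, given as a description, since all arrays share the contrast of antigen with none. Among 5602 genes, Irs2 was the 42nd most alike to Plk2, and Plk2 the 15th most alike to Irs2. The 5 genes most alike to Plk2 were Timm23, part of the mitochondrial import channel, Irf4, a transcription factor of activated B cells, Trp53inp2, the folliculin gene Flcn and the Ras-related Rasd1, with r from 0.994 to 0.995. Their responses were of different sizes. Irf4 was higher with HEL by 2.73 ± 0.17 in IgMG cells and by 3.72 ± 0.17 in IgM cells, and Timm23 by 0.74 ± 0.14 in IgMG cells and 1.15 ± 0.14 in IgM cells.

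The 5 genes most alike to Irs2 were Pole4, a DNA polymerase subunit, Nhp2, which serves ribosomal RNA modification, the surface receptor Cd5, Wsb2 and the protease inhibitor gene Cstb, with r from 0.987 to 0.996. Each had a lower mean signal in resting IgMG than in resting IgM cells, as Irs2 did. Cd5 had a mean of 10.7 in resting IgMG cells and 21.9 in resting IgM cells, and Pole4 of 156 in resting IgMG cells and 187 in resting IgM cells. This shared feature follows from how they were found, since likeness was measured on all arrays.

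**Figure D4:**
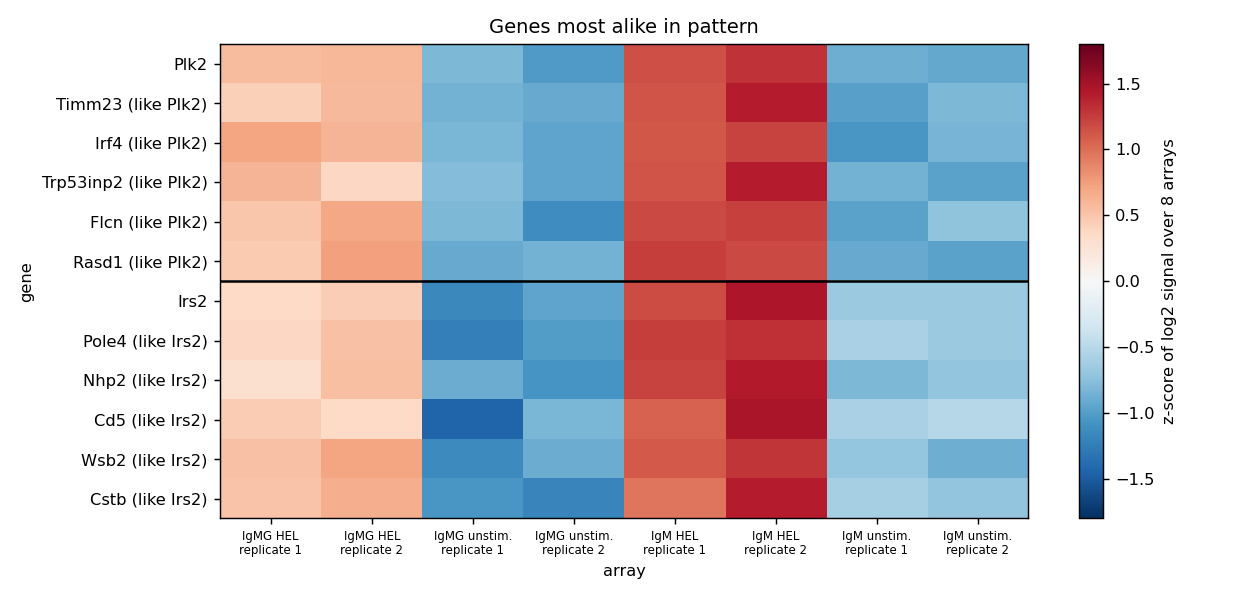
Log2 signal of Plk2, Irs2 and the 5 genes most like each, as z-scores over the 8 arrays (columns, in 4 groups of 2). All 12 rows are highest on the IgM arrays with HEL, and in the lower block the resting IgMG arrays are below the resting IgM arrays.

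None of the other measured members of both families passed the test for a HEL response. Irs1 and Irs3 were too dim to be tested, with signals of 1.3 to 12.8 and of 4.7 to 18.5 over all arrays. Of the other Polo-like kinases, Plk1, Plk3 and Plk4 were tested, by 5 probe sets. Of these, 0 were past the adjusted threshold in either HEL response, where 5.39% of all probe sets passed in IgMG cells and 14% in IgM cells. An unadjusted p under 0.05 in limma was found for 2 of the 5 in IgMG cells and 1 in IgM cells. Over all 7453 tested probe sets it was found for 1662 in IgMG cells and 2135 in IgM cells. Plk4, the kinase of centriole duplication, had signals of 187.3 and 246.7 in IgMG cells with HEL, against 96.9 and 116.1 in resting IgMG cells. In IgM cells it had 135.7 and 81.4 with HEL, against 123.5 and 84.5 without. Its response was 0.92 ± 0.27 in IgMG cells (adjusted p = 0.0891 in limma) and 0.04 ± 0.27 in IgM cells (adjusted p = 0.947 in limma). Plk3, a stress-responsive kinase, had a mean signal of 1589 ± 2.26 with HEL and 1207 ± 77.6 without in IgMG cells (SD, n = 2 each). In IgM cells it had 1381 ± 249 with HEL and 1122 ± 127 without (SD, n = 2 each), and neither response passed. The 3 probe sets of the mitotic kinase Plk1 disagreed in sign.

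Among genes that act with Irs2 in PI3K signalling, calls were made in IgM cells alone, which by itself does not show a difference between the receptors. Of 44 listed genes besides Irs2, 23 were tested. In IgMG cells 0 passed, against 5.39% of all tested probe sets. An unadjusted p under 0.05 in limma was found for 5 of the 23, and for 1662 of all 7453 tested probe sets. In IgM cells 1 rose and 4 fell, 21.7% of the list against 14% of all tested probe sets. The median response was -0.10 in both, against -0.05 over all probe sets in IgMG cells and -0.02 in IgM cells. Inpp5d, which encodes the lipid phosphatase SHIP that removes a phosphate from the product of PI3K, rose by 1.22 ± 0.18 in IgM cells, and was at 0.55 ± 0.18 in IgMG cells, where a second probe set pointed the other way. The falls in IgM cells were those of Pik3r2, a regulatory subunit (-1.38 ± 0.36), the Ras exchange factor Sos2 (-1.05 ± 0.29), Foxo3 (-0.80 ± 0.21) and Pik3cd, the catalytic subunit of leukocytes (-0.67 ± 0.18, with its other probe set opposite in sign). In IgMG cells Pik3r2 was at -0.72 ± 0.36, Sos2 at -0.66 ± 0.29, Foxo3 at -0.73 ± 0.21 and Pik3cd at -0.65 ± 0.18. The 5 calls in IgM cells became 1 without either of the second IgM arrays or either HEL-stimulated IgMG array. They became 3 without either of the first IgM arrays.

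The known p53 targets that passed the test fell. The part of p53 in the Plk2 response was not tested. Of 17 tested besides Plk2, 0 passed in IgMG cells, where 5.39% of all probe sets did. In IgMG cells 5 of the 17 had an unadjusted p under 0.05 in limma, as did 1662 of all 7453 tested probe sets. In IgM cells 6 fell and 0 rose, against 7.27% of all probe sets that fell. The median response was -0.29 in IgMG and -0.66 in IgM cells. The 5 largest falls that passed in IgM cells, as log2 changes, were those of Sesn1, a stress sensor (-2.25 ± 0.31), the DNA damage recognition gene Xpc (-1.5 ± 0.28), Gadd45a (-1.32 ± 0.32), the nucleotide synthesis gene Rrm2b (-1.23 ± 0.18) and Ei24 (-0.79 ± 0.17). In IgMG cells Sesn1 was at -0.92 ± 0.31, Xpc at -0.72 ± 0.28, Gadd45a at -0.43 ± 0.32, Rrm2b at -0.54 ± 0.18 and Ei24 at -0.08 ± 0.17. The 6 calls in IgM cells became 2 without either resting IgM array or without the second HEL-stimulated IgM array.

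More known FoxO targets fell than rose in IgM cells. The part of FoxO factors in the Irs2 response was not tested. Of 17 tested besides Irs2, 1 fell and 0 rose in IgMG cells, against 2.29% of all probe sets that fell, and 6 fell and 2 rose in IgM cells, against 7.27% and 6.7%. The median response was -0.22 in IgMG and -0.88 in IgM cells. Klf2, a transcription factor of resting lymphocytes, had mean signals of 470.8 in IgMG cells with HEL and 892 in resting IgMG cells, and of 53.1 in IgM cells with HEL and 1009 in resting IgM cells. It fell by 4.05 ± 0.38 on the log2 scale in IgM cells, and its response of -0.89 ± 0.38 in IgMG cells did not pass (adjusted p = 0.207 in limma). Txnip, an inhibitor of thioredoxin and glucose uptake, was the gene called in both, with -1.10 ± 0.16 in IgMG and -1.99 ± 0.16 in IgM cells, though a second probe set pointed the other way. Cited2 was at -0.81 ± 0.25 in IgMG cells and at -1.16 ± 0.25 in IgM cells. Sesn1 and Gadd45a, which are in this list too, are given above. The homing receptor Ccr7 rose by 1.92 ± 0.27 in IgM cells and Gadd45b by 1.31 ± 0.28 (0.85 ± 0.21 on its other probe set). In IgMG cells Ccr7 was at 0.80 ± 0.27 and Gadd45b at 0.55 ± 0.28, where the other Gadd45b probe set had the opposite sign. The 8 calls in IgM cells became 5 without the second resting or the second HEL-stimulated IgM array. The single call in IgMG cells became 0 when the second stimulated IgMG array was left out and 2 without either HEL-stimulated IgM array.

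All listed genes known to respond through cyclic AMP response elements that passed the test rose. The list was drawn up with earlier results of these data known, so the counts describe it and do not test it. Of 13 tested besides Irs2, 6 rose and 0 fell in IgMG cells, against 3.1% of all probe sets that rose, and 8 rose and 0 fell in IgM cells, against 6.7%. The median response was 0.92 in IgMG and 1.36 in IgM cells. The nuclear receptor gene Nr4a1 rose by 3.84 ± 0.35 in IgMG and by 5.57 ± 0.35 in IgM cells, and the clock gene Per1 by 1.95 ± 0.25 in IgMG and by 3.47 ± 0.25 in IgM cells. Crem, which encodes a repressor and activators of these elements, rose by 3.22 ± 0.26 in IgMG and by 3.18 ± 0.26 in IgM cells. The dimmer of its 2 probe sets disagreed on the difference between the receptors, with a rise of 2.21 ± 0.22 in IgMG and of 2.91 ± 0.22 in IgM cells for Crem. Rgs2, a regulator of G protein signalling, rose by 1.84 ± 0.31 in IgMG and by 2.30 ± 0.31 in IgM cells. Atf3 rose by 2.43 ± 0.33 in IgM cells and was at 0.79 ± 0.33 in IgMG cells (adjusted p = 0.196 in limma). The 6 calls in IgMG cells became 3 when the first stimulated IgMG array was left out and 2 when the second was.

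**Figure D5:**
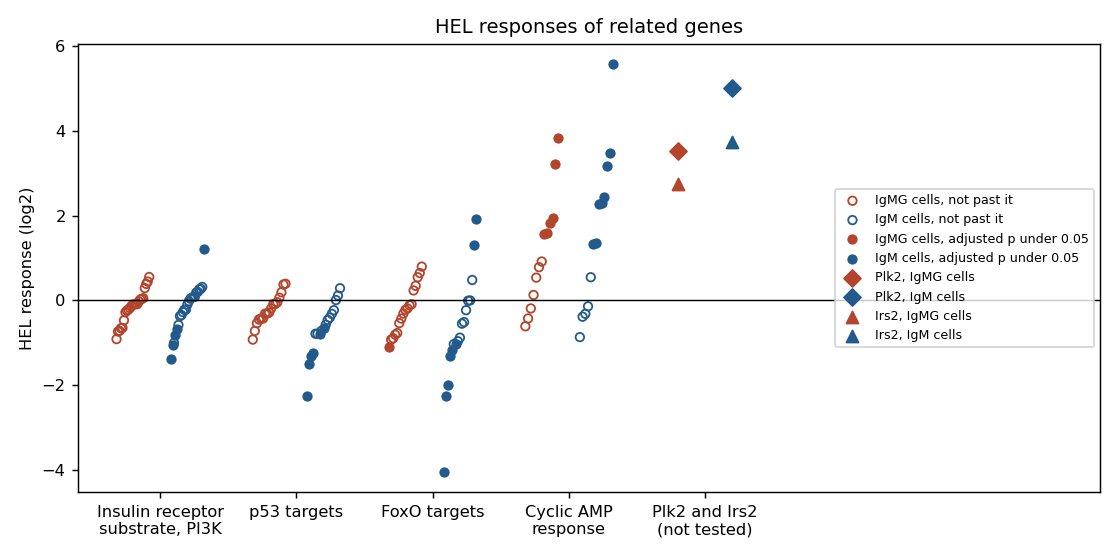
HEL response in log2 of the tested members of 4 gene lists, in IgMG cells (left of each pair) and IgM cells (right of each pair), with Plk2 and Irs2 beside them. Filled circles passed an adjusted p of 0.05 in limma and open circles did not. The cyclic AMP response genes with calls lie above 0, and the FoxO and p53 targets with calls lie mostly below 0. The part of these pathways in the responses of Plk2 and Irs2 was not tested.

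The test of the difference of responses between the receptors was passed by 0 of 7453 probe sets in limma (0%), so that no member of these 4 lists passed it says nothing about the lists. At an unadjusted p under 0.05 the counts were 1 of 23 PI3K pathway genes, 3 of 17 p53 targets, 6 of 17 FoxO targets and 3 of 13 cyclic AMP response genes. Over all tested probe sets 750 of 7453 had an unadjusted p under 0.05.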

How the data were processed

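RNA from 8 pools of sorted B cells was hybridised to 8 single-colour oligonucleotide arrays. The deposited intensity of each probe set was calculated with MAS5, per the submitters' processing notes; the deposited values of each array had a mean of about 150.1 after trimming 2% at each end, and no other setting is stated. Groups and replicate numbers came from the sample titles. Whether arrays share mice is not stated, so p-values measure the spread between these arrays, whose number limits the precision.

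Of 12488 probe sets, 66 controls were left out. The brightest 60% by mean log2(signal + 16), 7453 of 12422, were tested with limma 3.58.1 in R 4.3.3 (1 coefficient per group, eBayes with trend, two-sided, Benjamini-Hochberg over all). With 2 arrays against 2 an exact permutation test cannot go below p = 0.333. Symbols came from the platform's annotation; the 10839 probe sets matched to RefSeq genes by gene identifier kept their symbols. The brightest probe set stands for a gene that has several.

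The members and lists were chosen with earlier results of these data known, so counts of list members describe the lists and do not test them. Named genes were Plk2, Irs2, all measured family members, up to 5 called genes of each list and direction with the largest change in IgM cells, and the 5 genes with the highest correlation to each. Xist and Eif2s3y were chosen after their values were seen. Alternatives covered the offset, scaling, filter, trend, arrays in the fit, a replicate block and each array left out. Leaving out both arrays that stand apart or both with low Xist, and a crossed pairing, were chosen after seeing the data. Scripts were tested on simulated data. Python 3.11.15 with matplotlib 3.10.9 drew the figures.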

Additional observations from a re-analysis of the deposited data

How the results depend on the processing

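With 2 arrays a group, and MAS5 summaries of dim signals in resting Irs2, the values below limit how firmly sizes can be read. Both genes kept a rise with HEL and a lower stimulated level in IgMG cells in all alternatives, and the resting differences of Plk2 (-0.28 to 0.24) and Irs2 (-1.19 to -0.32) passed in none. For Plk2, the HEL response was 3.84 in IgMG and 5.34 in IgM cells with an offset of 1, and 2.87 in IgMG and 4.34 in IgM cells with an offset of 64. It was 3.29 in IgMG cells without both arrays that stand apart, and 3.29 without both arrays of low Xist, where the difference of responses was -1.78. For Irs2, the response was 3.61 in IgMG and 4.22 in IgM cells with an offset of 1, and 1.70 in IgMG and 2.89 in IgM cells with an offset of 64. The difference of responses was -0.61 with an offset of 1. Without both arrays that stand apart the Irs2 response was 3.48 in IgM cells, the difference of responses -0.55 and the stimulated difference -1.45. Leaving out 1 array at a time, Plk2 ranged from 3.29 to 3.76 in IgMG cells and from 4.85 to 5.20 in IgM cells, with a difference of responses from -1.74 to -1.26. Irs2 ranged from 2.56 to 2.94 in IgMG cells and from 3.48 to 4.02 in IgM cells, with a difference of responses from -1.27 to -0.74 and a stimulated difference from -1.99 to -1.45. Over all probe sets, leaving out 1 array gave 58 to 368 calls in IgMG cells (402 with all arrays), 341 to 1278 in IgM cells (1041 with all) and 0 to 32 in resting cells (0 with all). The IgMG count was 256 with no filter, 231 with no trend and 163 with only the 4 arrays of the comparison. The IgM count was 496 without both arrays of low Xist, and the resting count 17 without both arrays that stand apart. PI3K pathway calls in IgM cells (5) were 3 with an offset of 64 or only 4 arrays, 2 with no filter, no trend or without both arrays that stand apart, and 1 to 5 leaving out 1 array. In IgMG cells (0) they were 0 to 1 leaving out 1 array and 1 without both arrays that stand apart. The p53 target calls in IgM cells (6) were 3 without both arrays that stand apart, 2 without both arrays of low Xist and 2 to 6 leaving out 1 array. FoxO target calls were 5 in IgM cells and 2 in IgMG cells without both arrays that stand apart. Leaving out 1 array gave 5 to 11 in IgM cells and 0 to 2 in IgMG cells. Cyclic AMP response calls ranged from 2 to 7 in IgMG cells leaving out 1 array. Apart from offsets and arrays left out, whose construction sets the change, the cause was not tested. Deviations of same-numbered arrays correlated between groups with r from -0.161 to 0.016, so the experiment numbers of the titles gave no sign of a pairing. With 2 arrays a group, this cannot show whether same-numbered arrays came from a shared experiment. A replicate block by these numbers gave 273 calls in IgMG cells, 869 in IgM cells and 0 in resting cells, and 2 PI3K pathway calls in IgM cells; the stimulated difference was -1.54 for Plk2 and -1.72 for Irs2. With the numbers of the resting IgMG arrays crossed, 0 probe sets were called in resting cells. Averaging several probe sets of a gene was not run, as each gene has 1.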
